A study of Mus musculus with 4 samples.

Results

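Genes of 10 transcription factor families were examined for peaks of MyoD, the bHLH transcription factor that directs muscle differentiation. Members were taken by symbol, namely every gene in the deposited peak lists whose symbol starts with Runx, Tead, Klf, Sox, Fox, Meis, Pbx, Jun or Fos, or with Nfi followed by a, b, c or x, leaving out genes annotated by KEGG to the FoxO or JAK-STAT pathway. This gave 41 of the 7235 genes in the lists, with no use of a measured value. One of them, Pbxip1, encodes a protein that binds Pbx factors and is not itself a member of the Pbx family. MyoD ChIP-seq had been done on myotubes, the multinucleated cells that form when myoblasts fuse. The cells were primary myoblasts of C57BL/6 mice aged 2 weeks, differentiated for 5 days and then held for 24 hours in differentiation medium that contained pyruvate or lacked it. Each condition had 1 library made with the MyoD antibody SC-760 and 1 input library, and each MyoD library had 1 deposited peak list. The list with pyruvate held 11907 peaks and the list without pyruvate held 19338.

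All cells shared genotype and differentiation, and the medium apart from its pyruvate. Nothing in the labels says how many mice or cultures stood behind a library. With 1 library per condition no difference between the lists has a replicate check and no test was possible. Read depth is unknown, so the absence of a peak from one list does not show an absence of binding, and the lists differ in length by a factor of 1.62. Which list belongs to which condition rests on the sample titles alone. The deposited tables carry abbreviated names that could be read the opposite way, and nothing measured settles this. If the titles were wrong, every direction given here would reverse. The only measure per peak was its width, with a minimum of 169 bases in the list with pyruvate and of 144 bases in the list without. All 10 myotube marker genes examined, among them Myog, Des and Ttn, had a peak in at least 1 list, with 22 peaks with pyruvate and 15 without. Of 6 fibroblast markers 4 had a peak, with 2 peaks with pyruvate and 4 without, of 4 endothelial markers 3 did, with 4 and 8 peaks, and of 4 macrophage markers 2 did, with 1 and 2 peaks. Peaks do not measure expression, so they do not show which cells were present.

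MyoD binds DNA as a dimer with an E protein at E-boxes, the sequence CANNTG, and it works together with other transcription factors that open chromatin or bind beside it. Tead factors bind DNA and recruit the coactivators Yap1 and Wwtr1, Runx factors act with Cbfb, and Jun and Fos proteins pair to form AP-1. Pbx and Meis homeodomain proteins form complexes that help MyoD bind at the Myog promoter, and Nfix directs the fetal programme of muscle genes.

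For 3 of these genes a MyoD peak reached the 300 bases from 250 upstream to 50 downstream of the listed start in both lists, namely Runx1, Foxp1 and Foxn2, for Klf10 and Klf16 only in the list with pyruvate, and for Foxf2 only in the list without. The RefSeq promoters of Runx1 and Foxp1 are shown because the starts given for them in the peak lists carried MyoD peaks in both conditions. That of Foxf2, chosen after its values were seen, is shown because its listed start carried one in a single condition. Sequences are from RefSeq GRCm38.p6, 5′ to 3′ along the gene, with every CANNTG in capitals. They come from chr16:92826025-92826324 on the minus strand for Runx1, chr6:99520944-99521243 on the minus strand for Foxp1 and chr13:31625566-31625865 on the plus strand for Foxf2.
Runx1: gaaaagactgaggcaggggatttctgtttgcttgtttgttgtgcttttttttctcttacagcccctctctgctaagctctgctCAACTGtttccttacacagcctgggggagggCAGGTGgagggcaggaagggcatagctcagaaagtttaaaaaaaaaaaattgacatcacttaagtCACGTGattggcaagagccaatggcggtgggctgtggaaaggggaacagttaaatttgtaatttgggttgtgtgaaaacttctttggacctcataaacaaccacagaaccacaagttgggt
Foxp1: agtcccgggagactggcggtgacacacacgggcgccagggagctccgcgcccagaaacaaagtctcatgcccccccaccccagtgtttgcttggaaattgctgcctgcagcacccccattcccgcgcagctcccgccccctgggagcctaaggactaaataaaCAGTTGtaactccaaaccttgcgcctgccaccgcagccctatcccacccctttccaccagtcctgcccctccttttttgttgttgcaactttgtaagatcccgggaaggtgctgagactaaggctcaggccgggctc
Foxf2: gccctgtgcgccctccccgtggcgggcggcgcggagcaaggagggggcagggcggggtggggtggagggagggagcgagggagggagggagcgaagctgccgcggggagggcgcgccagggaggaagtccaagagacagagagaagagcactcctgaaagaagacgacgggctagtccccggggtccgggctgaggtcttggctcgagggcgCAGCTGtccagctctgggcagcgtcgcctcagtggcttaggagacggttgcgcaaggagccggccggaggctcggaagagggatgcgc
The peaks are in build mm9, another assembly, and RefSeq gives 2 starts for Runx1 and 3 for Foxp1, of which the outermost was taken, so whether these windows are the ones under the peaks was not established. In the Runx1 window the E-box CAACTG begins 167 bases before the start. A second E-box, reading CAGGTG, begins 136 bases before it, and the third, reading CACGTG, 71 bases before it. The Foxp1 window holds 1, CAGTTG, 87 bases before the start, and the Foxf2 window holds 1, CAGCTG, 38 bases before it. RefSeq promoters were matched for 27 of the 41 genes by symbol, 41 promoters in all. CANNTG, which reads the same on both strands, was present in 27 of these promoters (65.9%), against 72.3% of all 32851 promoters of this length. CAGCTG, one form of it, was in 14.6% of the family promoters and 16.3% of all promoters, and CAGGTG on either strand was in 17.1% and 20.2%. The family promoters thus did not hold these E-boxes more often than promoters in general.

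A peak was assigned to a gene when the deposited lists place it in the gene body or in a flank of 2000 bases. The 41 genes held 99 peaks with pyruvate and 130 without, a ratio of 1.31, while all peaks in gene regions numbered 7452 with pyruvate and 11381 without, a ratio of 1.53. With the list without pyruvate cut to its widest peaks, as many as in the other list, the 41 genes held 99 peaks with pyruvate and 87 without, so the direction turned. Of the 41 genes, 32 (78.0%) had a peak in both lists, against 55.1% of all genes in the lists. Only Fosl2 (2.44%) had peaks solely with pyruvate, against 9.95% of all genes. Peaks solely without pyruvate were found for 8 genes (19.5%, against 35.0% of all genes), among them Fosl1, Foxf2, Foxj2, Foxs1, Meis2, Pbx3 and Tead3. More peaks with pyruvate than without were listed for 8 genes (19.5%, against 16.9% of all genes), and more without for 21 (51.2%, against 53.8%). The family genes held more peaks each than genes in general, 2.41 with pyruvate and 3.17 without on average, against 1.03 and 1.57 over all genes. Their bodies were also longer, with a median of 57.3 kb for the 35 family genes with a located body and 47.2 kb for all located genes. Per 100 kb of gene body they held 1.53 peaks with pyruvate and 2.03 without, against 1.15 and 1.77. A gene with more peaks more readily has one in each list, and the shares of genes by list above were not adjusted for this.

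**Figure D1:**
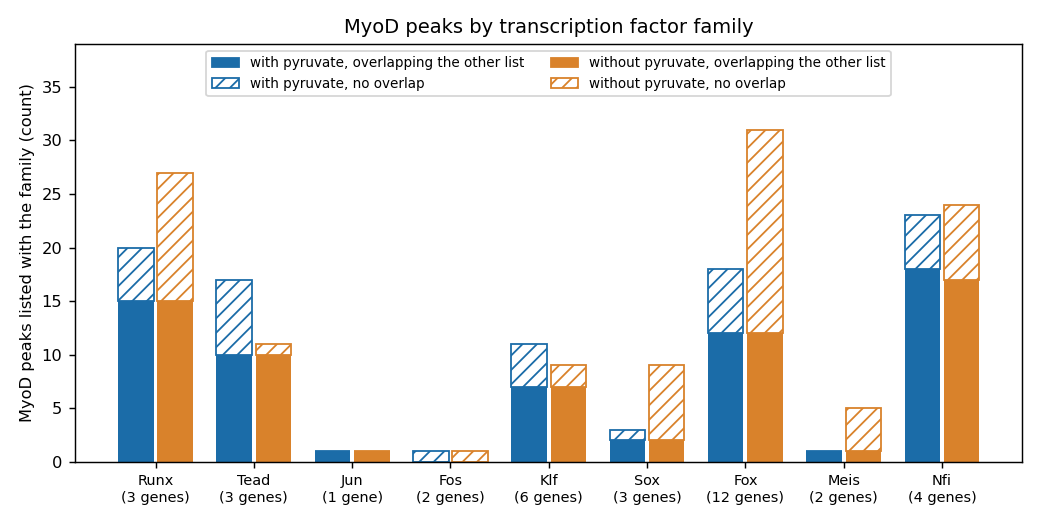
Number of MyoD peaks listed with each family drawn (all but Pbx; y axis, count of distinct peaks), with pyruvate in blue and without pyruvate in orange. Solid bars are peaks that overlap the other list and hatched bars those that do not. Tead and Klf have the taller bar with pyruvate (17 against 11, and 11 against 9), Fox and Runx without it (18 against 31, and 20 against 27), though not at equal list length (18 against 16, and 20 against 19).

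A peak was called shared when it overlapped a peak of the other list by at least 1 base. Of the family peaks 70 of 99 with pyruvate were shared (70.7%, 95% exact binomial interval 60.7 to 79.4%), and 69 of 130 without (53.1%, 44.1 to 61.9%). Intervals cover counting error only. Over all peaks in gene regions the shares were 71.5% with pyruvate and 46.9% without (71.8% and 44.2% over all peaks), all inside the intervals of the family genes. The 70 pairs lay close together, with a median distance between peak centres of 20.0 bases and 60 of the 70 within 50 bases, against a median of 17.5 over all pairs. Of the unshared peaks, 4 of 29 with pyruvate (13.8%) and 5 of 61 without (8.20%) lay within 1 kb of a peak in the other list. Over all unshared peaks in gene regions these shares were lower, 9.75% and 5.61%. The median distance of unshared family peaks to the other list was 10.7 kb with pyruvate and 30.3 kb without (16.5 and 36.4 kb over all genes). Few unshared family peaks thus lay beside a peak of the other list.

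Family peaks had a median width of 248 bases with pyruvate (quartiles 205 and 290.5) and 248.5 without (203.5 and 302), close to the medians of 250 and 241 over each whole list. Shared family peaks were wider, with medians of 257 bases with pyruvate and 265 without, than unshared ones, with 220 and 216. The same held over all genes, with medians of 264 and 284 bases for shared peaks and 217 and 211 for unshared ones. Within the 70 pairs the peak with pyruvate was the wider one in 28, the peak without in 41, and 1 pair was equal. An Nfib peak of 666 bases without pyruvate was the partner of both a 271-base and a 218-base peak with pyruvate. The 70 pairs thus involve 69 peaks without. Over all 8555 pairs the peak with pyruvate was wider in 37.9%, so the family genes as a whole (40%) followed the background, but single families differed in direction, as given for each below.

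Most family peaks lay far from gene starts. Of the 99 peaks with pyruvate 86 touched a gene body, and of the 130 without 114 did. These shares were close to those over all genes, 6604 of 7452 with pyruvate and 10174 of 11381 without. The median distance to a located start was 43.1 kb with pyruvate and 64.0 kb without, against 29.0 and 31.8 kb for all genes. More than 100 kb from the start lay 34 of 95 located peaks with pyruvate and 50 of 125 without. Over all genes these counts were 1469 of 7007 with pyruvate and 2388 of 10706 without. Peaks within 2 kb of a located start, or in a flank whose side the lists do not show, are called promoter-proximal here. They made up 16.2% of family peaks with pyruvate (16 peaks, interval 9.53 to 24.9%) and 13.8% without (18 peaks, 8.42 to 21.0%), against 22.2% and 21.2% of all peaks in gene regions. Promoter-proximal peaks in both lists were found for 10 genes (24.4%, against 18.7% of all genes), namely Runx1, Runx2, Foxm1, Foxn2, Foxp1, Klf4, Klf5, Klf10, Sox9 and Pbxip1. Klf16 and Fosl2 had one solely with pyruvate (4.88%, against 6.01%), and Fosl1, Foxf2, Foxj2, Foxs1 and Pbx3 solely without (12.2%, against 17.7%). For Fosl1, Fosl2, Foxs1, Klf4, Pbxip1 and Sox9 the side of the flank is not shown, so the peak may lie beyond the gene's end.

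**Figure D2:**
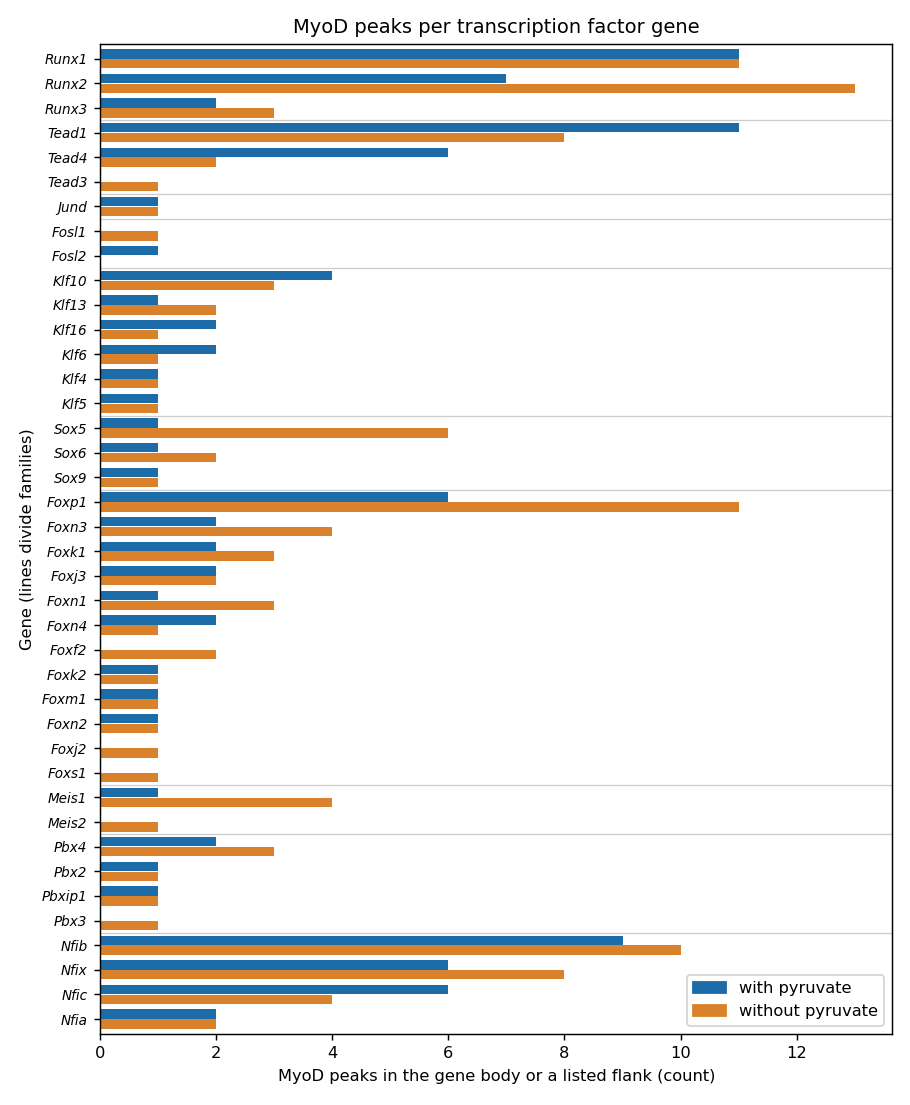
Number of MyoD peaks in each gene reported (x axis, count; genes on the y axis, with lines between families), with pyruvate in blue above and without pyruvate in orange below. Runx1 has 11 peaks in each list, Tead1 11 with pyruvate and 8 without, and Runx2 7 and 13.

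Peaks were concentrated in few genes, and Foxp1, Nfib, Nfic, Nfix, Runx1, Runx2, Sox5, Tead1 and Tead4 were among those with at least 6 peaks in a list. By the sum over both lists Runx1 ranked 19 among the 7235 genes, Runx2 28, Tead1 and Nfib 36 each, Foxp1 54 and Nfix 106. At the other end 9 genes had 1 peak in each list.

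In the full lists Tead was the family with most peaks with pyruvate relative to those without. Its genes encode the DNA-binding partners of the coactivators Yap1 and Wwtr1 and recognise elements found in many muscle promoters. The 3 genes held 17 peaks with pyruvate and 11 without, while over all genes the list without pyruvate was the longer. At equal list length the Tead counts were unchanged. Klf then held 11 with pyruvate and 7 without, Nfi 23 and 15, and all 41 genes 99 and 87. Sox and Meis, among others, still held more without. At equal list length the direction was thus not particular to Tead. Of the Tead peaks with pyruvate 10 were shared (58.8%, interval 32.9 to 81.6%), and of those without 10 of 11 were (90.9%, 58.7 to 99.8%). The peaks without pyruvate were thus nearly a subset of those with pyruvate. Tead peaks were also wide, with a median of 351 bases with pyruvate and 275 without, at median percentiles of 82.8 and 65.3 within their lists. In 8 of the 10 pairs the peak with pyruvate was the wider, with medians of 397 bases with pyruvate and 277 without and a median difference of 89 bases, whereas over all pairs the median difference was -22 bases. None of these peaks was promoter-proximal.

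Tead4, a Tead factor of myoblasts with a gene body of 76.5 kb on the minus strand of chromosome 6, held 6 peaks with pyruvate and 2 without. With pyruvate they were 427, 217, 405, 648, 443 and 238 bases wide in the order of their coordinates, and without pyruvate 555 and 254 bases. The widest, chr6:128214939-128215587 (mm9) with pyruvate, at percentile 98.9 of its list, paired with chr6:128215007-128215562 without. It lay 35254 bases inside the gene. The other pair was 443 bases wide with pyruvate and 254 without. The 4 peaks found solely with pyruvate lay 5321 to 28015 bases from any peak of the other list, so all 4 were separate sites.

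Tead1, on chromosome 7, held 11 peaks with pyruvate across its 227.488 kb body and downstream flank, and 8 without. All 8 peaks without pyruvate overlapped one with pyruvate. The widest were 473 bases with pyruvate, at chr7:120029008-120029481, and 388 bases without, at chr7:120029049-120029437. The 3 peaks solely with pyruvate, 330, 283 and 193 bases wide, lay 12380 to 23003 bases from the other list. Tead3, another member of the family, held no peak with pyruvate and 1 of 240 bases without, 4696 bases from its start. Outside gene regions, within 50 kb of Tead1, 3 peaks were listed with pyruvate and 3 without, and each overlapped one of the other list. Near Tead3 a peak of 430 bases with pyruvate overlapped one of 524 bases without.

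Of 6 Tead cofactor genes 4 had peaks, each in both lists. Wwtr1, which encodes the coactivator TAZ, had 3 peaks with pyruvate and 3 without, the widest 508 bases with pyruvate and 355 without. Vgll2, a skeletal muscle cofactor, had 2 and 2 peaks, Vgll3 3 and 2, and Vgll4 3 and 6. Yap1 and Vgll1 are not in the lists. The cofactors together held 11 peaks with pyruvate and 13 without, and Vgll4 was the only one with more without. They were not recounted at equal list length.

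**Figure D3:**
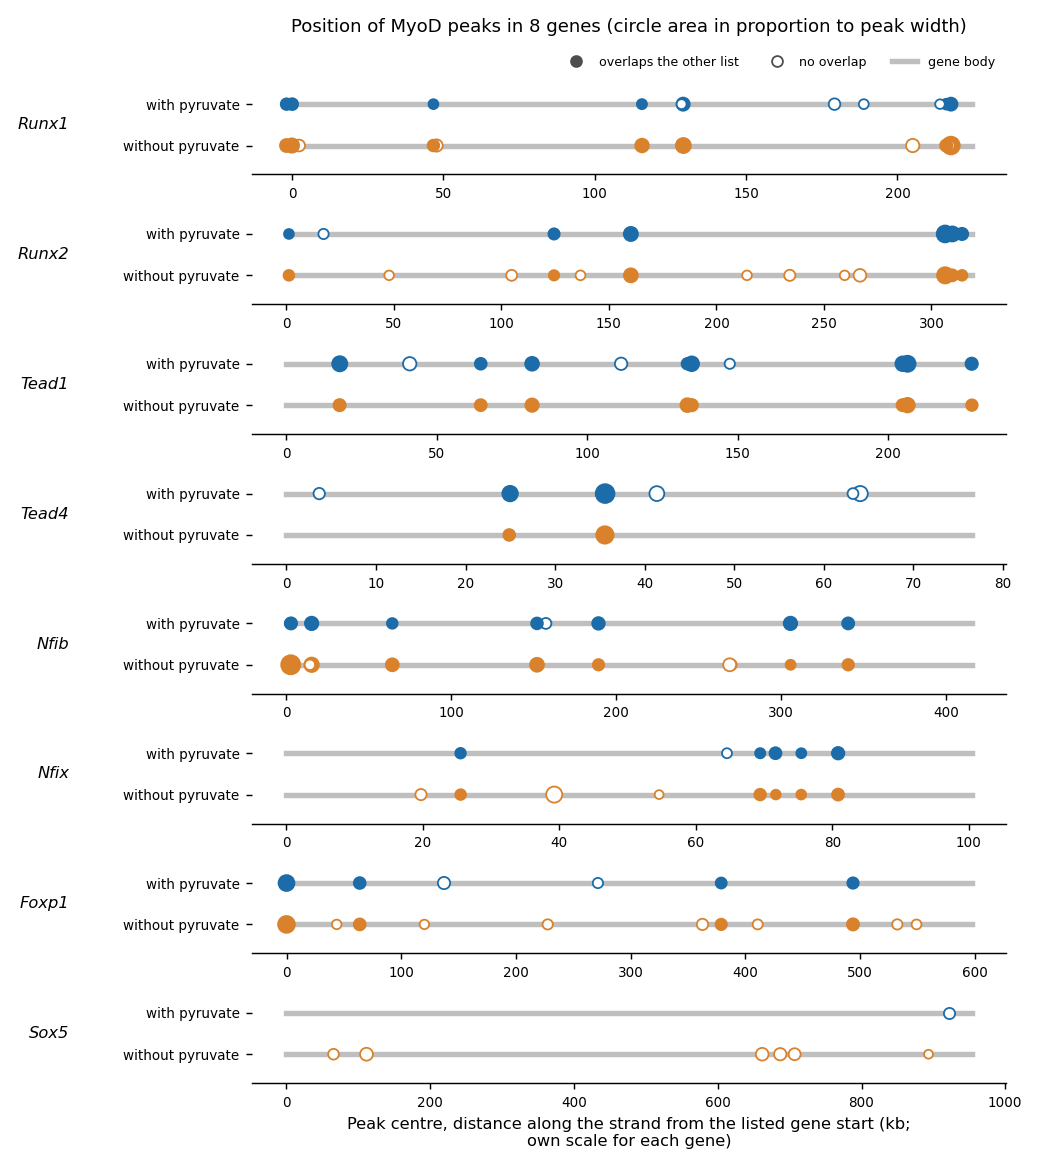
Position of MyoD peaks along 8 genes (x axis, distance in kb of the peak centre from the listed start, each gene on its own scale), with pyruvate in the upper row and without pyruvate in the lower row of each gene. Filled circles overlap the other list, open circles do not, circle area is in proportion to peak width, and the grey line is the gene body. Circles of neighbouring peaks overlap. In Tead1 and Tead4 every open circle lies in the row with pyruvate, and in Sox5 the row with pyruvate holds 1 open circle and the row without 6.

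The Runx genes held 20 peaks with pyruvate and 27 without, 3.16 and 4.16 per 100 kb of gene body. At equal list length they held 20 with pyruvate and 19 without. In the full lists 15 Runx peaks were shared in each list, 75% with pyruvate and 55.6% without. Runx1, best known for blood formation and induced in denervated muscle, held 11 peaks in each list, of which 7 were shared. In all 7 pairs the peak with pyruvate was the narrower one, by a median of 98 bases (medians 248 bases with pyruvate and 341 without). The peak over the Runx1 start was 257 bases wide with pyruvate, at chr16:92826145-92826402, and 375 bases wide without, at chr16:92826162-92826537. A second pair lay upstream, 1693 bases from the start with pyruvate (248 bases wide) and 1684 bases without (312 bases). At the far end of the gene, 217536 bases from the start, a peak of 312 bases with pyruvate paired with the widest Runx1 peak without, 578 bases at chr16:92608362-92608940. That peak overlapped another of its own list, chr16:92608922-92609099. The latter was counted apart as unshared, though it lay only 147 bases from the other list.

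Runx2, the bone-forming factor, held 7 peaks with pyruvate and 13 without. Here 6 peaks in each list were shared, and 5 of the 6 pairs were wider with pyruvate, by a median of 35.5 bases over the 6, which is the opposite direction to Runx1. The widest were 523 bases with pyruvate, at chr17:44645122-44645645, and 486 bases without, at chr17:44645132-44645618. The pair nearest the start lay 1056 bases inside the gene with pyruvate and 1022 bases without, in a stretch also listed with Supt3h. The 7 peaks solely without pyruvate were 169 to 295 bases wide and lay 12095 to 71882 bases from the other list. Runx2 has 2 gene IDs in the lists, pooled here.

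Runx3 held 2 peaks with pyruvate, 261 and 213 bases wide, and 3 without, 306, 275 and 494 bases wide. The first 2 of each list were pairs, and the third, chr4:134727226-134727720, had no partner and lay 1553 bases from the other list. Outside gene regions within 50 kb of Runx3 there were 2 peaks with pyruvate, the wider 331 bases, and 5 without, the widest 709 bases. Of 5 Runx cofactor genes, Cbfb, which encodes the common partner subunit, had 1 peak in each list (336 bases with pyruvate, 375 without). The corepressor genes Tle3, with 1 peak with pyruvate and 2 without, and Tle4, with 1 and 1, also had peaks in both.

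**Figure D4:**
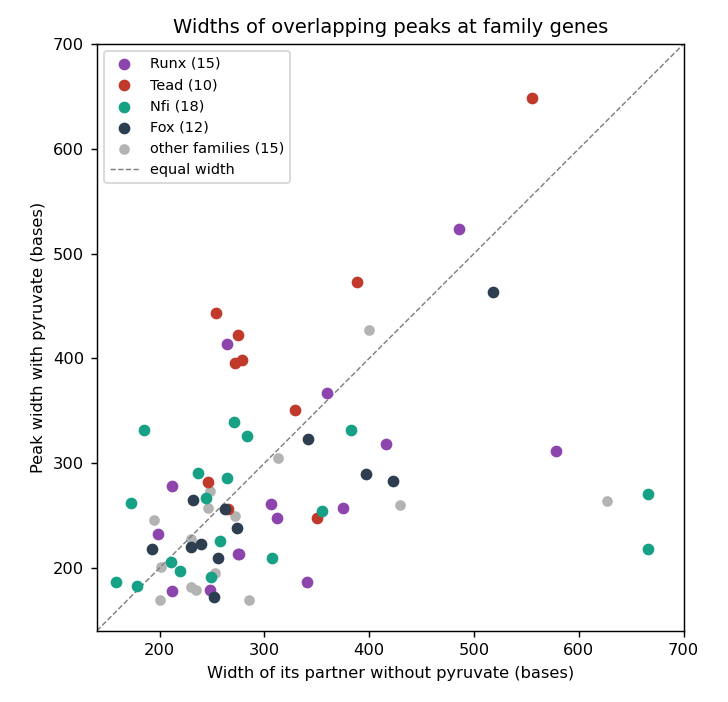
Width of each of the 70 shared peaks with pyruvate (y axis, bases) against the width of its partner without pyruvate (x axis, bases). Each point is a pair, coloured by family, and the dashed line marks equal width. Of the Tead pairs 8 of 10 lie above the line, of the Runx pairs 5 of 15, and of the Fox pairs 2 of 12.

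The Nfi genes encode the nuclear factor I proteins, and all 4 were in both lists, with 23 peaks with pyruvate and 24 without. Shared peaks made up 18 of 23 with pyruvate (78.3%, interval 56.3 to 92.5%) and 17 of 24 without (70.8%, 48.9 to 87.4%). At equal list length they held 23 peaks with pyruvate, 13 of them shared, and 15 without, 12 of them shared. None was promoter-proximal. Nfib, which acts in lung and brain development, held 9 peaks with pyruvate and 10 without over 415.578 kb. Its widest peak, chr4:82348751-82349417 without pyruvate, was 666 bases wide and lay 2237 bases from the start, and it covered 2 separate peaks with pyruvate, 271 and 218 bases wide. Nfix, the fetal muscle factor, held 6 peaks with pyruvate and 8 without, and 5 in each list were shared. Its widest peak, 475 bases at chr8:87284761-87285236, was found solely without pyruvate, 13389 bases from the other list. Nfic held 6 peaks with pyruvate and 4 without, all 4 of them shared, in a body of only 34.82 kb. Nfia held 2 peaks in each list, of which 1 was shared.

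The Fox genes, the forkhead family, were the most numerous, with 12 genes. They held 18 peaks with pyruvate and 31 without, a ratio of 1.72. At equal list length the direction turned, with 18 with pyruvate and 16 without. In the full lists 12 were shared in each list (66.7% with pyruvate, interval 41.0 to 86.7%, and 38.7% without, 21.8 to 57.8%). In 10 of the 12 pairs the peak without pyruvate was the wider. Foxp1, a forkhead repressor with roles in lymphocytes and heart, held 6 peaks with pyruvate and 11 without over 597.384 kb, of which 4 were shared. The peak over its start was the widest, 463 bases with pyruvate at chr6:99472584-99473047 and 518 bases without at chr6:99472579-99473097. Part of the gene, this start included, is also listed with Eif4e3. The 7 Foxp1 peaks solely without pyruvate were 165 to 237 bases wide, below the median of that list.

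At the start of Foxn2 a peak of 220 bases with pyruvate paired with one of 230 bases without. Foxm1, a driver of cell division genes, had 1 pair, 209 bases wide and 583 bases from the start with pyruvate, and 256 bases wide and 566 bases from it without, also listed with 5930416I19Rik. Foxf2, a factor of gut and palate mesenchyme, had no peak with pyruvate and 2 without. One of 160 bases, chr13:31717567-31717727, covered the start, and one of 330 bases, chr13:31724356-31724686, lay downstream. The nearest peaks with pyruvate were 139708 and 132749 bases away. Foxj2 had 1 peak of 216 bases without pyruvate, 1211 bases from its start, and Foxs1 1 of 190 bases in a flank, and neither had one with pyruvate.

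Foxk1, expressed in muscle progenitor cells, had 2 peaks with pyruvate and 3 without, and none was shared. All 5 were narrow, 195 and 169 bases with pyruvate and 214, 160 and 160 bases without. Foxj3 and Foxk2 had all their peaks shared, 2 and 1 in each list. Foxn3 had 2 peaks with pyruvate and 4 without, of which 1 pair was shared, 290 bases wide with pyruvate and 397 without. Foxn1, the factor of the thymic epithelium, had 1 peak with pyruvate and 3 without, with 1 pair of 283 bases with pyruvate and 423 without. Foxn4 had 2 peaks with pyruvate and 1 without. Its unshared peak of 245 bases lay only 184 bases from the other list, beside the pair.

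The Klf genes encode zinc finger factors that bind GC-rich elements, and all 6 were in both lists. They held 11 peaks with pyruvate and 9 without, of which 7 in each list were shared (63.6% with pyruvate, interval 30.8 to 89.1%, and 77.8% without, 40 to 97.2%). Klf was the family with the largest share of promoter-proximal peaks among families with over 5 peaks in each list, 7 of 11 with pyruvate and 5 of 9 without. Klf10, induced by TGF-beta, accounted for much of this, with 4 promoter-proximal peaks with pyruvate and 3 without. Of these, 2 were pairs upstream of the start. The peak nearest the start lay 105 bases upstream with pyruvate (218 bases wide) and 552 bases upstream without (144 bases wide, the minimum of that list), 229 bases apart from each other. Klf16 had a peak of 169 bases solely with pyruvate 86 bases upstream of its start, at the minimum width of that list, and a downstream pair of 250 bases with pyruvate and 272 without.

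Klf4, one of the reprogramming factors, had 1 pair in a flank, 260 bases wide with pyruvate and 429 without. Klf5, which acts in smooth and skeletal muscle differentiation, had 1 pair of nearly equal width, 228 bases with pyruvate and 230 without, 1136 and 1137 bases from its start. The largest difference in width within a Klf pair was at Klf13, where a peak of 264 bases with pyruvate lay inside one of 627 bases without, chr7:71069648-71070275. Klf6 was the only Klf gene with a pair wider with pyruvate, 257 bases against 246 without, just downstream of the gene. It also had a peak of 290 bases solely with pyruvate, 575 bases from the other list. Of the 9 related Sp genes 2 had peaks, Sp2 with 1 in each list and Sp4 with 1 solely with pyruvate.

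The homeodomain partners that are reported here had few peaks. Pbx3 had a single peak without pyruvate, 185 bases wide and 346 bases from its start, with none with pyruvate. Pbx2 had 1 pair, 182 bases with pyruvate and 230 without, and Pbx4 2 pairs and 1 further peak without. The Pbxip1 pair, 427 bases with pyruvate and 400 without, is also listed with Pygo2.

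Meis1 had 1 peak with pyruvate and 4 without. The 1 pair was 169 bases wide with pyruvate, the minimum of that list, and 285 without. Meis2 had 1 peak of 196 bases solely without pyruvate, 189729 bases from its start. Among the related TALE genes Pknox2 had 7 peaks with pyruvate and 6 without, and Pknox1 and Tgif1 had 1 in each list.

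The Sox genes encode HMG-box factors. They held 3 peaks with pyruvate and 9 without, of which 2 in each list were shared, and at 0.131 and 0.526 body peaks per 100 kb were the sparsest of the families with a located body. Sox5, which acts with Sox6 in cartilage, had 1 peak with pyruvate, 230 bases wide, and 6 without, 144 to 304 bases wide, and none was shared although the body spans 953.553 kb. Sox6, which represses slow fibre genes in muscle, had 1 peak of 179 bases with pyruvate, paired with one of 235 bases without, and 1 further peak without. Sox9, the cartilage factor, had 1 pair in a flank, 246 bases with pyruvate and 195 without. Among the HMG-box relatives Tcf7l1 had 3 peaks with pyruvate and 8 without, and Tcf7l2 4 and 6, while Tcf7 had 1 peak with pyruvate and 0 without.

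AP-1 genes had few peaks. Jund had 1 pair, 195 bases wide and 2189 bases from its start with pyruvate, and 253 bases wide and 2185 bases from it without, also listed with Gm11175. The Fos genes present had 1 peak each in opposite lists. Fosl2 had 1 of 221 bases with pyruvate, 1786 bases from the nearest peak without, and Fosl1 had 1 of 196 bases without pyruvate, 15112 bases from the nearest with. Of the related bZIP genes Atf3, Atf4, Jdp2 and Mafk had peaks in both lists, and Batf and Batf3 solely without pyruvate.

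Against the RefSeq gene table, 45 of 109 protein-coding genes with these symbol prefixes were in the lists (41.3%, interval 31.9 to 51.1%), against 5408 of all 21900 (24.7%). This count includes 4 genes left out by the pathway rule, Foxo1 and Foxo4 with 1 peak in each list, Foxo6 with 2 peaks with pyruvate and 3 without, and Foxo3 with 0 and 2. All 41 genes matched this table by symbol, whereas 5408 of the 7235 genes in the lists matched a protein-coding gene. Listed genes that have since been renamed would be missed and would make the 24.7% too low. The longer bodies of the family genes were not adjusted for. By symbol prefix the counts were, among others, 4 of 4 for Nfi, 3 of 4 for Runx and for Tead, 16 of 46 for Fox, 6 of 17 for Klf and 3 of 19 for Sox. Prefixes also match genes outside the families, such as Runx1t1, Foxred1 and Foxred2. A denominator can thus exceed the true family size, and 3 of 4 for Runx does not show a Runx factor without a peak. Outside gene regions, within 50 kb of the 41 genes, a further 17 peaks were listed with pyruvate and 26 without, of which 9 in each list were shared (52.9% and 34.6%, against 72.4% and 40.4% of all peaks outside gene regions).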

How the data were processed

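The authors deposited 1 table per MyoD ChIP library, which pairs each peak with the gene regions it touches, per the file headers. The submitters' processing notes name MACS2 2.1.1, Bowtie2 2.1.0, bcl2fastq 2.19 and the build mm9. No calling threshold, input use or read filters are given in the sources used here. Fold columns, as deposited, hold 0 in every row with a number and were not used. The input libraries were not analysed here. Rows (13076 with pyruvate, 20902 without) were reduced to distinct peaks, and coordinates are printed as deposited. Widths are end minus start. Gene IDs (7262) were pooled by symbol, and starts were taken from the listed gene bodies and strands, or from the gap between 2 flanks (2 of the 41 genes). Of the peaks of the 41 genes, 22 of 99 with pyruvate and 26 of 130 without are also listed with another gene. Shares carry 95% exact (Clopper-Pearson) binomial intervals. The members and gene lists were chosen with earlier results of these data known. All members could be named; those described in full were, per family, the gene with most peaks, the gene with the widest peak, those with a peak near a located start and those in 1 list only. Details of other genes were chosen after their values were seen. Some genes, counted in the totals, are not reported here by name. Code for overlaps was tested on simulated peaks. The alternatives were other overlap rules, start windows and peak or gene selections. Tables were handled in pandas 2.3.3 and numpy 2.4.6 under Python 3.11.15, intervals came from scipy 1.17.1 and plots from matplotlib 3.10.9.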

Additional observations from a re-analysis of the deposited data

How the results depend on the processing

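Of 88 alternative values for the main counts, shares and widths, 58 stayed close to the reported value and 30 moved. Requiring peaks of at least 250 bases left 48 peaks with pyruvate and 64 without, with median widths of 298 and 305 bases, and put 19 genes in both lists and 2 solely with pyruvate; promoter-proximal peaks were then in both lists for 5 genes, solely with pyruvate for 0 and solely without for 1. Cutting the list without pyruvate to its widest peaks, as many as in the other list, gave 4 genes solely with pyruvate and 3 solely without (promoter-proximal 4 and 0), shared shares of 58.6% with pyruvate and 65.5% without, and a median width of 274 bases without. This cut removed narrow peaks from the list without pyruvate only. Both selections act on width, so the rise of these median widths was fixed in advance, though they count among the 30 that moved. With gene bodies alone 2 genes were solely with pyruvate and 5 solely without, and promoter-proximal peaks were in both lists for 5 genes and solely without for 2. Within 1 kb of a located start these counts were 5 in both, 1 solely with and 2 solely without; within 10 kb 17 were in both; with located starts alone 1 was solely with and 3 solely without. Leaving out peaks also listed with a gene outside the families, an alternative chosen after seeing the data, gave 5 in both and 1 solely with. Within 100 kb there were 30 surrounding peaks with pyruvate and 55 without. Most of these settings keep fewer peaks or genes, while the 10 kb and 100 kb windows take in more. The cause of the shifts was not tested. Tead and Klf both kept more peaks with pyruvate than without under every alternative that recounted peaks. At 250 bases Tead held 13 and 9, and Klf 6 and 4. In the widest subset the 41 genes held 99 peaks with pyruvate and 87 without, Runx 20 and 19, Fox 18 and 16, and Nfi 23 and 15, so these directions turned. Unknown depth limits every absence. No paired analysis was possible because each condition has 1 library.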
